A study of Mus musculus with 16 samples.

Results

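The miRNAs described here are 6 mature forms that mark stromal cells and vascular smooth muscle: mmu-miR-143-3p, mmu-miR-145a-5p, mmu-miR-199a-3p, mmu-miR-199a-5p, mmu-miR-199b-3p and mmu-miR-214-3p, written below without the species prefix. They were taken by name from the raw read count tables, and all 6 are among the 941 miRNA names listed there. Small RNA was sequenced from extracellular vesicles (EVs), the membrane particles that cells release, and from RAW264.7 cells, a macrophage line from male BALB/c mice. Each of 4 EV preparations gave 1 library: serum EVs of female BALB/c mice aged 8 to 9 weeks, given saline or 15 mg/kg of the lectin concanavalin A (Con A) and bled 9 h after Con A, and EVs shed by RAW264.7 cells during 24 h with saline or 25 µg/mL Con A in medium freed of EVs. The cell libraries are 3 for each of 4 groups. The cells had PBS, serum Con A EVs, RAW saline EVs or RAW Con A EVs for 8 h, the EVs at 6e9 particles/mL, and cells of all 4 groups, the PBS controls included, were then kept with Con A for a further 16 h. No cell group received EVs from saline-treated mice. The labels do not say how many mice or dishes an EV library pools, nor that the 3 cell libraries of a group are separate cultures, so p-values measure the spread between these libraries, which may be technical.

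A miRNA is cut from a hairpin precursor, and its 5p or 3p arm is loaded on an Argonaute protein, where the seed near its 5′ end pairs with target mRNAs. The miR-143 and miR-145 hairpins are made from 1 transcript and are among the most abundant miRNAs of smooth muscle, where they keep the cells in the contractile state. The miR-214 hairpin and the miR-199a hairpin on chromosome 1 (Mir199a-2) are cut from the noncoding transcript Dnm3os. miR-199a and miR-214 are known from mesenchymal cells, including activated stellate cells of the liver, and from fibrosis. Con A injected into mice activates T cells and gives an immune hepatitis. Macrophages are known for other miRNAs, such as miR-21a, miR-223 and miR-155.

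The RefSeq sequences (GRCm38.p6) of 4 of the 6 members are shown because they decide which entries can be told apart; capitals mark the seed, bases 2 to 8.
miR-199a-5p: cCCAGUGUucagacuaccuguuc
miR-199a-3p: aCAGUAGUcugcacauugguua
miR-199b-3p: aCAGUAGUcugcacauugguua
miR-214-3p: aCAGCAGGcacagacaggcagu
miR-199a-3p and miR-199b-3p differ at 0 bases, so a read of either cannot be given to 1 of the 2 loci by its sequence. Their seed and that of miR-214-3p share 5 of 7 bases by position. miR-199a is encoded at chr1:162217814-162217923 on the + strand (Mir199a-2) and again on chromosome 9, where its 3p arm lies at chr9:21496498-21496519 on the - strand (Mir199a-1). miR-199b-3p lies at chr2:32318524-32318545 on the + strand. By GENCODE M21, Mir199a-1 and Mir199b lie in introns of the dynamin genes Dnm2 and Dnm1, on the opposite strand to each.

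The hairpins of Mir199a-2 and Mir214 show how the arms measured here sit in their precursors; each is 110 bases long and capitals mark the 5p and 3p mature arms.
Mir199a-2: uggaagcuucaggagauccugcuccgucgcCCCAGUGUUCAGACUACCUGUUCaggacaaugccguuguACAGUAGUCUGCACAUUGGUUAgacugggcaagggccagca
Mir214: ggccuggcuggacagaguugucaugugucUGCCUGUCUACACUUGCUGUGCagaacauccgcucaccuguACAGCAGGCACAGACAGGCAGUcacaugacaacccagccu
Mir214 is at chr1:162223368-162223477 on the + strand, and 5444 bases separate the hairpins. Both are exonic in Dnm3os and lie in an intron of Dnm3, which is on the opposite strand.

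The cell libraries hold 174510 to 403332 miRNA reads and the EV libraries 114791 to 334285. The EV libraries differ in how much of them liver miRNAs take up: the 4 hepatocyte markers (miR-122-5p, miR-148a-3p, miR-192-5p and miR-194-5p) hold 23.8% of reads in serum saline EVs, 85.4% in serum Con A EVs, 2.33% in RAW saline EVs and 28.9% in RAW Con A EVs. The last value goes against the macrophage label of that library. miR-122-5p had 28061 reads there, or 208038 CPM (counts scaled to 1000000 miRNA reads), against 20.4 CPM in the PBS cells. The 6 macrophage and myeloid markers made up 4.05% of reads in RAW Con A EVs, 11.3% in RAW saline EVs and 26.5% to 32.1% in the 12 cell libraries. Most of that share was miR-21a-5p, with 3767 of 5468 reads in RAW Con A EVs and 11984 of 13011 in RAW saline EVs. In the PBS cells miR-21a-5p had 226073 reads and miR-223-3p had 25. A CPM in an EV library is a share of a total whose make-up differs between libraries. Each comparison between EV libraries is therefore also given under other scalings. Ratios of EVs to cells are by CPM alone.

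In EVs, miR-143-3p was the most abundant of the 6 miRNAs in all 4 libraries. It had 1787 reads in serum saline EVs, 179 in serum Con A EVs, 124 in RAW saline EVs and 230 in RAW Con A EVs. As levels these are 13525, 535, 1080 and 1705 CPM. In serum saline EVs it ranked 21 of the 417 miRNAs with a read, against 46 of 346, 63 of 419 and 48 of 398 in the other 3 libraries. By CPM the serum saline library was the highest and the serum Con A library the lowest. The rank of the serum Con A library rests on the scaling: serum Con A EVs stood at 1501 with trimmed mean of M-values (TMM) scaling, against 800 and 1315 in RAW saline and RAW Con A EVs, and at 3674 CPM without the 4 hepatocyte miRNAs in the total, against 1106 and 2398.

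The paired product of its transcript, miR-145a-5p, had few reads in any library. It had 14 reads (106 CPM) in serum saline EVs, 4 reads (29.7 CPM) in RAW Con A EVs and 0 reads in the other 2 EV libraries, where a count of 0 allows up to 8.97 CPM (serum Con A) and 26.1 CPM (RAW saline), taking a floor of 3 reads. These floors, and every interval of an EV value, cover counting error only.

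The miR-199 3p forms, which act on the same seed targets, were the next most abundant. miR-199a-3p had 137 reads (1037 CPM) in serum saline EVs, 8 (23.9 CPM) in serum Con A EVs, 25 (218 CPM) in RAW saline EVs and 53 (393 CPM) in RAW Con A EVs. miR-199b-3p, with the same sequence, had 136, 9, 28 and 51 reads. Both entries lie within 3 reads of each other in every EV library and within 16 reads in every cell library, and the sources used here do not state how reads that match both were assigned. They are not independent of each other, and are read below as 1 measurement listed under 2 names.

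The 5p arm of miR-199a and miR-214-3p were rarer. miR-199a-5p had 16 reads (121 CPM) in serum saline EVs, 1 (2.99 CPM) in serum Con A EVs, 5 (43.6 CPM) in RAW saline EVs and 6 (44.5 CPM) in RAW Con A EVs. miR-214-3p, which shares the Dnm3os transcript with Mir199a-2, had 34 reads (257 CPM), 1 (2.99 CPM), 3 (26.1 CPM) and 9 (66.7 CPM) in the same order. By CPM the serum saline library was highest for all 6 members, and no library reached 50 reads for miR-145a-5p, miR-199a-5p or miR-214-3p. Together the 6 took 1.61% of reads in serum saline EVs, 0.0592% in serum Con A EVs, 0.161% in RAW saline EVs and 0.262% in RAW Con A EVs.

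**Figure D1:**
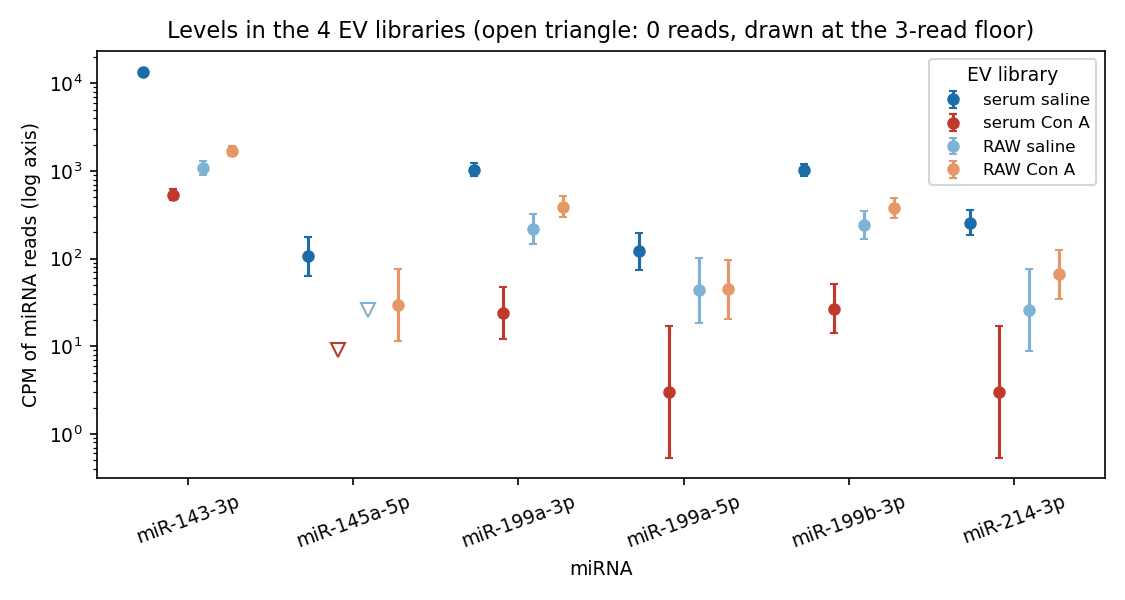
Level of each of the 6 miRNAs in the 4 EV libraries, in CPM of miRNA reads on a log axis; bars are Wilson 95% intervals (counting error only) and open triangles mark 0 reads at the floor of 3 reads. The serum saline point is the highest for each miRNA, from 13525 CPM for miR-143-3p to 106 CPM for miR-145a-5p.

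The first comparison asks what Con A hepatitis changed in serum EVs. All 6 members had a lower share of reads after Con A: the CPM of miR-143-3p was 25.3-fold lower (95% interval of the ratio of counts, 21.6 to 29.6), that of miR-199a-3p 43.3-fold lower (21.4 to 102) and that of miR-199b-3p 38.2-fold lower (19.6 to 85.4). For miR-214-3p, with 34 reads against 1, the ratio was 86.0-fold lower (14.4 to 3496), and for miR-199a-5p, with 16 reads against 1, it was 40.5-fold lower (6.29 to 1698). miR-145a-5p went from 14 reads to 0, a log2 ratio of -3.56 against the floor, which is a bound. A share also falls when other miRNAs rise, and the hepatocyte miRNAs went from 23.8% to 85.4% of reads. Such a rise, fewer EVs from a cell type and fewer copies in each EV cannot be told apart in such libraries.

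With 1 library on each side there is no replicate and no test. A miRNA is counted as apart when its CPM differs at least 2-fold with an interval that excludes a ratio of 1, among miRNAs for which the 2 libraries together hold 50 reads or more. By that rule the 3 member entries that reach 50 reads were lower, beside 81.5% of the 124 miRNAs that do. Since miR-199a-3p and miR-199b-3p are 1 sequence, these are 2 distinct sequences; with that pair summed, 2 of 2 were lower, beside 100 of 123 miRNAs. The median log2 ratio was -5.30 over the 6 entries, -5.34 with the pair summed, and -2.35 over the 124. The miR-199 entries reach 50 reads through serum saline EVs alone, with 137 and 136 reads against 8 and 9. A miRNA that meets the minimum through 1 library alone is counted because it is high there. Such counts, also those of the lists below, are a description only.

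How far the members stood lower depended on the scaling, since the share of hepatocyte miRNAs moved from 23.8% to 85.4% between these libraries. With the 4 hepatocyte miRNAs left out of the total, which sets the median log2 ratio of the 124 miRNAs to 0.03, miR-143-3p was 4.83-fold lower, miR-199a-3p 8.28-fold lower and miR-199b-3p 7.31-fold lower. With TMM scaling, which sets that median to -0.19, the values were 5.63-fold, 9.65-fold and 8.52-fold lower. In the authors' deposited table of normalized values the direction was the opposite: miR-143-3p stood at 14.2 in the saline library and 89.5 in the Con A library, miR-199a-3p at 1.09 and 4.00, and miR-199b-3p at 1.08 and 4.50.

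Those deposited values are the raw counts divided by 1 whole number per library, 126 for serum saline and 2 for serum Con A. The median log2 ratio of the 124 miRNAs is 4.96 on that scale, and the log2 ratios of 2.66, 1.88 and 2.06 for miR-143-3p, miR-199a-3p and miR-199b-3p lie below it. What the divisors count is not stated in the sources used here; a plant spike-in was added to the EV lysates per the labels, and its reads were not analysed here. Each scale multiplies a library by 1 factor, so the distance of a member from the median of the 124 miRNAs is the same on all 4 and is 1 observation: the 5 members with reads in both libraries lay below that median. The sign of their ratio differed between the deposited scale and the other 3.

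**Figure D2:**
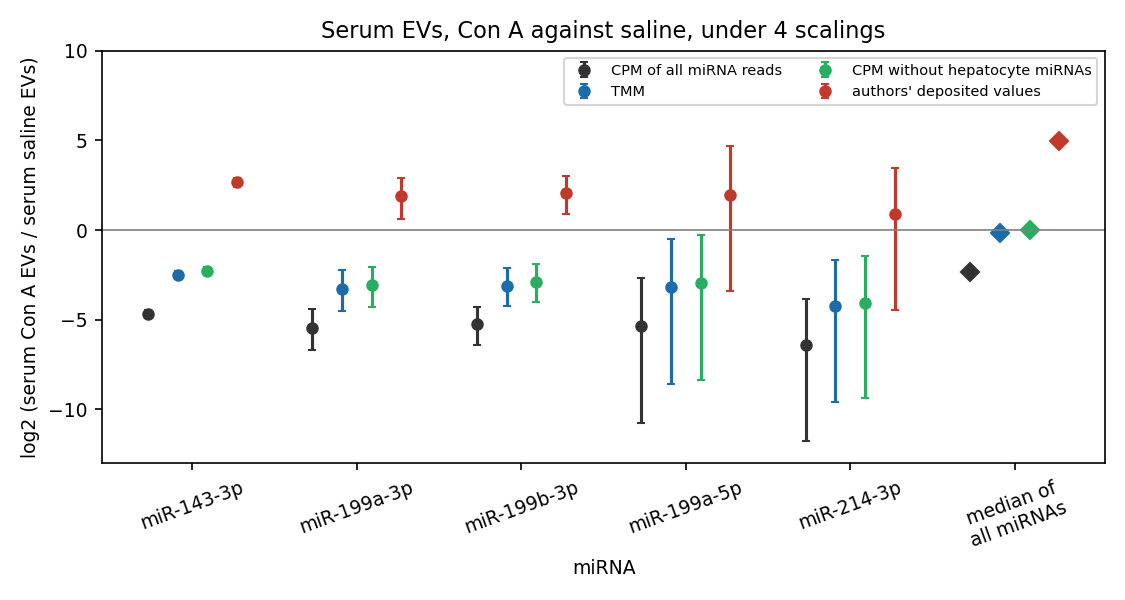
log2 ratio of serum Con A EVs over serum saline EVs for 5 members under 4 scalings, with 95% counting intervals, and as diamonds the median over the 124 miRNAs that reach 50 reads. The members lie below 0 for CPM, TMM and CPM without hepatocyte miRNAs and above 0 for the authors' deposited values, where the median is 4.96.

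Other lists were followed in the same pair of libraries. As above, 81.5% of all 124 miRNAs were lower by CPM. Of 7 striated muscle miRNAs, 2 reach 50 reads and both were lower: miR-206-3p, a skeletal muscle miRNA, 25.6-fold (12.4 to 61.3) and miR-1a-3p, which heart and skeletal muscle share, 9.65-fold (6.86 to 13.8). Of 10 other miRNAs abundant in mesenchymal cells, 6 reach 50 reads; 5 were lower, from 2.08-fold for miR-152-3p to 17.1-fold for miR-100-5p, and miR-22-3p was 2.53-fold higher (2.27 to 2.83). The epithelial markers stood about as far lower as the members, with 4 of the 4 that reach 50 reads lower, a median log2 ratio of -5.07 against -5.26 over the 3 member entries, and 0.582% of reads going to 0.0455%. Of the lymphocyte markers 2 of 2 were lower (median log2 ratio -2.87) and of the macrophage and myeloid markers 4 of 5 (-2.23). The erythrocyte markers went from 10.2% to 1.68% of reads and the 2 endothelial markers from 1.44% to 0.314%. The part of these cell types in the members' ratios was not tested.

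In EVs of the macrophage line, made with Con A in culture, the members' ratios were near or above 1 and smaller in size. From RAW saline to RAW Con A EVs the CPM ratio was 1.58 (1.26 to 1.98) for miR-143-3p, 1.80 (1.10 to 3.03) for miR-199a-3p, 1.55 (0.959 to 2.55) for miR-199b-3p, 2.55 (0.637 to 14.7) for miR-214-3p and 1.02 (0.260 to 4.23) for miR-199a-5p. The intervals of miR-143-3p and miR-199a-3p alone exclude 1, the ratio of miR-199a-5p was 0.977 by CPM without the most abundant miRNA, and miR-145a-5p had 4 reads against 0. None of the 3 member entries with 50 reads, 2 distinct sequences, passed the 2-fold rule, beside 53.0% of 134 miRNAs in either direction. The median log2 ratio was 0.65 over the members and -0.16 over the 134. The authors' deposited table gives miR-143-3p at 9.54 and 14.4, the same direction. Without the hepatocyte miRNAs, whose share rose from 2.33% to 28.9%, the ratios were 2.17, 2.48 and 2.13 for miR-143-3p, miR-199a-3p and miR-199b-3p. All 3 entries then passed the rule as higher, beside 47 of the 134 miRNAs on that scale and 23.9% of them by CPM of all reads. miR-199a-3p and miR-199b-3p meet the minimum of reads through RAW Con A EVs alone. They had 53 and 51 reads there, against 25 and 28 in RAW saline EVs. Their count is therefore a description only.

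Between the saline libraries, these miRNAs had a larger share of reads in serum EVs than in macrophage EVs. The deposited values, normalized separately for serum and RAW EVs, did not all have that order. There miR-143-3p stood at 14.2 in serum saline against 9.54 in RAW saline EVs, miR-199a-3p at 1.09 against 1.92 and miR-199b-3p at 1.08 against 2.15. The CPM ratio of serum saline over RAW saline EVs was 12.5 (10.4 to 15.1) for miR-143-3p, 4.76 (3.09 to 7.61) for miR-199a-3p, 4.22 (2.79 to 6.59) for miR-199b-3p, 9.85 (3.10 to 50.1) for miR-214-3p and 2.78 (0.973 to 9.70) for miR-199a-5p. miR-145a-5p had 14 reads against 0, at least 2.02 higher on the log2 scale against the floor. The 3 member entries with 50 reads, 2 distinct sequences, were higher, beside 36.8% of 144 miRNAs, and the median log2 ratio was 2.16 over the 6 entries and 0.18 over the 144. The miR-199 entries meet that minimum through serum saline EVs alone, with 137 and 136 reads against 25 and 28, so their count is a description only. With TMM, where the median of the 144 is -0.07, the ratios were 10.6 for miR-143-3p, 4.01 for miR-199a-3p and 3.56 for miR-199b-3p. Without the hepatocyte miRNAs, where it is 0.54, they were 16.0, 6.10 and 5.41. The epithelial markers, at 0.582% against 0.00958% of reads, and the erythrocyte markers, at 10.2% against 0.219%, were also higher in serum.

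Between the Con A libraries the order by CPM turned. miR-143-3p was 3.18-fold lower (2.61 to 3.89) in serum Con A than in RAW Con A EVs, miR-199a-3p 16.4-fold lower (7.76 to 40.0) and miR-199b-3p 14.0-fold lower (6.85 to 32.4). All 3 entries, 2 distinct sequences, were lower by the 2-fold rule, beside 70.8% of 120 miRNAs. The median log2 ratio was -3.85 over the members and -2.05 over the 120. miR-199a-3p and miR-199b-3p meet the minimum of reads through RAW Con A EVs alone. They had 53 and 51 reads there, against 8 and 9 in serum Con A EVs. Their count is therefore a description only. For miR-143-3p the sign rests on the scaling: its log2 ratio was -1.67 by CPM, 0.19 with TMM and 0.62 without the hepatocyte miRNAs. For miR-199a-3p it was -4.04, -2.18 and -1.75.

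RAW264.7 cells had a different profile of the 6 from the EVs. The miR-199 forms were moderately expressed in them, with miR-199a-3p at rank 93 to 103 among the 568 to 588 miRNAs with reads in a group, whereas miR-145a-5p and miR-214-3p had 0 reads in all 12 cell libraries. A count of 0 allows up to 3.30 to 3.65 CPM in a group of 3 libraries. miR-143-3p had 0 reads in the PBS cells and 16 in all 12 libraries. As markers of stroma against this macrophage line, miR-143-3p, miR-145a-5p and miR-214-3p were at or near 0 in the cells, and miR-199a and miR-199b were not.

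miR-143-3p was far more frequent by CPM in the EVs of these cells than in the cells. Its level in RAW saline EVs was 300.1 times, and in RAW Con A EVs 474 times, the floor of 3 reads over the PBS group, 3.60 CPM. The lower 95% counting limits of these ratios, against 0 reads, are 240.4 and 382. miR-214-3p in RAW Con A EVs stood at 18.5 times its floor there, with a lower counting limit of 12.2. miR-199a-3p was not more frequent in these EVs than in the cells: its CPM in RAW saline EVs was 0.443 times that of the PBS cells (0.283 to 0.663), and in RAW Con A EVs 0.799 times (0.588 to 1.07). EV and cell RNA were extracted with different kits per the labels, the PBS cells had Con A while the RAW saline EVs had none, and the intervals cover counting error only. miR-122-5p was likewise more frequent in RAW saline EVs than in PBS cells, at 3528 against 20.4 CPM.

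The share of miR-199a-5p in the reads of the 2 miR-199a entries differed from that of the cells, by counting error, in 2 of the 4 EV libraries. miR-199a-5p made up 26.2% to 35.0% of the reads of both miR-199a arms in the 12 cell libraries, and 30.6% (exact 95% interval 28.7% to 32.5%) over all of them. It was 10.5% (6.10% to 16.4%) in serum saline EVs, 10.2% (3.82% to 20.8%) in RAW Con A EVs and 16.7% (5.64% to 34.7%) in RAW saline EVs. In serum Con A EVs it was 1 read of 9, 11.1% (0.281% to 48.2%). The intervals of serum saline and RAW Con A EVs lie below the pooled cell interval, and those of the other 2 EV libraries overlap it. The 3p entry holds reads that miR-199b may have given, in both kinds of sample, while the 5p count leaves out miR-199b-5p. That arm had 44 reads beside 6 of miR-199a-5p in RAW Con A EVs and 0 beside 16 in serum saline EVs. In the PBS cells it had 37 beside 186. The low value in RAW Con A EVs is thus not a low share of 5p arms over both miRNAs.

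**Figure D3:**
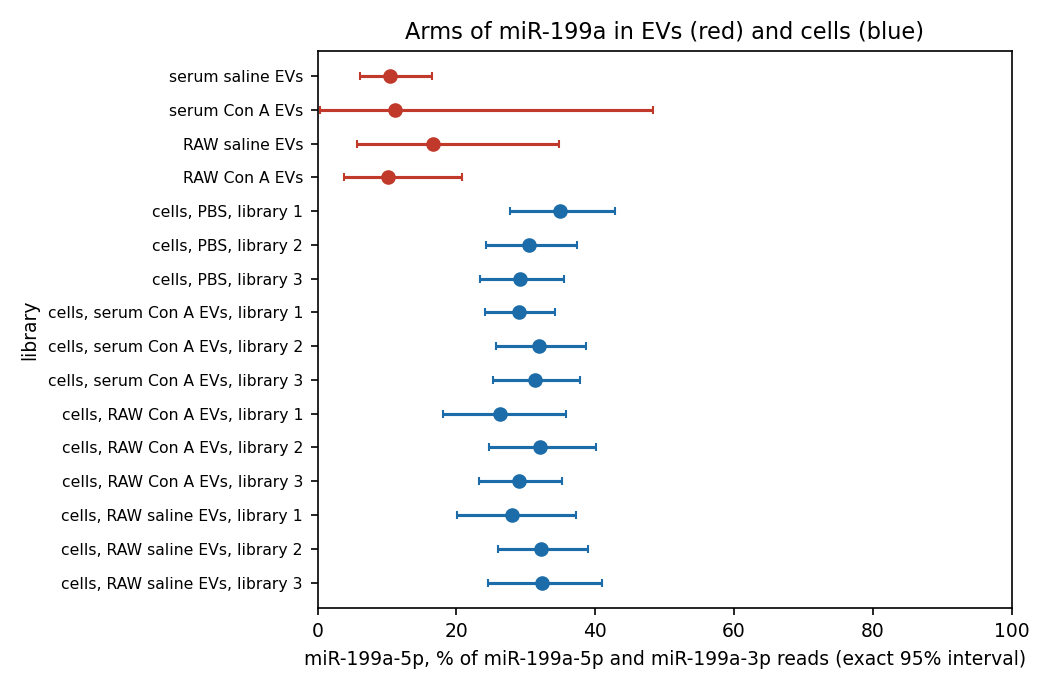
Share of miR-199a-5p in the reads of miR-199a-5p and miR-199a-3p, in percent, with exact 95% intervals, for the 4 EV libraries (red) and 12 cell libraries (blue). The cell libraries lie between 26.2% and 35.0% and the EV libraries between 10.2% and 16.7%.

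The partner arms of the members' hairpins were mostly sparse. Of 8 names on the list 4 are in the tables, and all 4 had reads; the rest were not analysed here. miR-143-5p had 5 reads in serum saline EVs and 0 in the other 3, 0.279% (0.0907% to 0.650%) of both miR-143 arms in that library. miR-145a-3p had more reads than miR-145a-5p in serum saline EVs, 40 against 14, so that the 5p arm held 25.9% (15.0% to 39.7%) of the pair. miR-214-5p had 12 reads in serum saline EVs, 2 in serum Con A EVs and 0 in both RAW libraries. miR-145a-3p, miR-143-5p and miR-214-5p had 0 reads in all 12 cell libraries.

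The remaining partner arm is miR-199b-5p, whose sequence, unlike that of the 3p arm, sets miR-199b apart from miR-199a. It had 0 reads in serum saline EVs, 1 in serum Con A EVs, 5 in RAW saline EVs and 44 in RAW Con A EVs. The CPM ratio of RAW Con A over RAW saline EVs was 7.49 (2.98 to 24.2), and the authors' deposited table gives 0.385 and 2.75. It reached 49 reads over both RAW libraries, 1 short of the minimum of the 2-fold rule. Its highest library was RAW Con A EVs, whereas that of each of the 6 members was serum saline EVs. The RAW Con A level of 326 CPM is 7.35 times (4.64 to 11.7) that of the PBS cells, at 44.4 CPM, while RAW saline EVs stood at 0.981 times (0.301 to 2.50). In cells miR-199b-5p had 7 to 21 reads in a library and did not pass the test described below in any comparison.

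In cells, the question was whether uptake of EVs changed the miRNAs of Con A-treated macrophages. Levels are TMM-scaled CPM. miR-199a-3p was 461, 450 and 519 in the PBS cells, 612, 473 and 506 with serum Con A EVs, 453, 441 and 461 with RAW Con A EVs, and 397, 400 and 402 with RAW saline EVs. The group means ± SD (n = 3) were 477 ± 36.9, 530 ± 72.9, 452 ± 9.86 and 400 ± 2.76. The cells given RAW saline EVs had the lowest mean, and their libraries do not overlap those of the PBS or the RAW Con A group. Of all 229 miRNAs tested, 31.4% do not overlap between these cells and PBS, and 16.2% between them and the RAW Con A group. The remaining 3 groups are close: the PBS cells overlap both the serum Con A and the RAW Con A group.

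miR-199b-3p gave the same order, with means ± SD (n = 3) of 493 ± 39.6 in PBS cells, 542 ± 77.9 with serum Con A EVs, 469 ± 37.7 with RAW Con A EVs and 409 ± 9.22 with RAW saline EVs. miR-199a-5p had 57, 61 and 68 reads in the PBS libraries, 95, 67 and 70 with serum Con A EVs, 27, 48 and 69 with RAW Con A EVs, and 32, 69 and 44 with RAW saline EVs. As levels these were 220 ± 25.8, 234 ± 14.4, 186 ± 23.4 and 179 ± 21.1 (SD, n = 3). In miR-199a-5p too the RAW saline libraries lie below every PBS library, beside 31.4% of 229 miRNAs that do not overlap there. They overlap those given RAW Con A EVs.

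**Figure D4:**
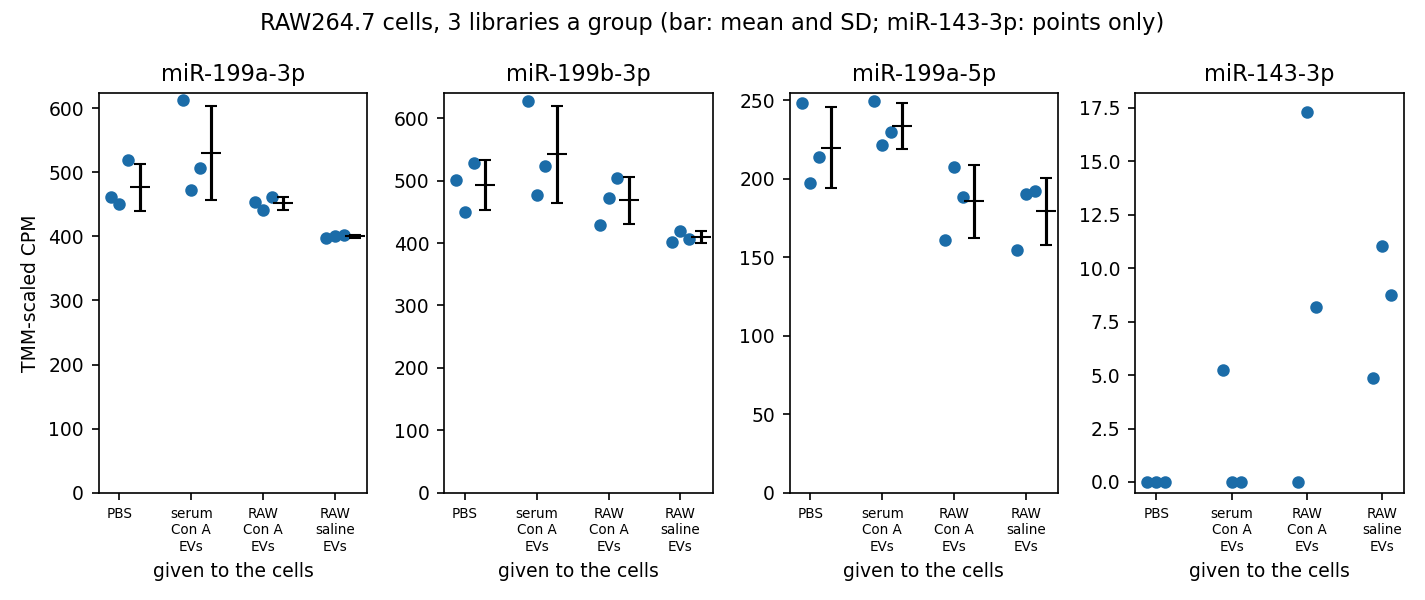
TMM-scaled CPM of 4 members in the 12 RAW264.7 libraries, 3 a group (points), with the group mean and SD (bars; points only for miR-143-3p). miR-199a-3p is lowest in cells given RAW saline EVs, at 397 to 402, and miR-143-3p is at 0 in all 3 PBS libraries.

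None of the 3 miR-199 members tested passed an adjusted p of 0.05 in any of the 5 comparisons (edgeR quasi-likelihood test, Benjamini-Hochberg over 229 miRNAs). Over all 229, 21.4% passed for serum Con A EVs against PBS, 11.4% for RAW Con A EVs against PBS, 14.0% for RAW saline EVs against PBS, 34.9% for serum Con A against RAW Con A EVs, and 3.49% for RAW Con A against RAW saline EVs. At an unadjusted p under 0.05, miR-199a-3p and miR-199b-3p passed for RAW saline EVs against PBS, and miR-199a-3p and miR-199a-5p for serum Con A against RAW Con A EVs; with DESeq2 none of the 3 had an adjusted p under 0.05 in these comparisons. The comparisons against PBS share the PBS libraries.

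For RAW saline EVs against PBS the log2 change of miR-199a-3p was -0.26 ± 0.12 (SE; 95% interval -0.49 to -0.02; edgeR adjusted p = 0.134). miR-199b-3p gave -0.26 (adjusted p = 0.134 by edgeR) and miR-199a-5p -0.26 (edgeR adjusted p = 0.270). The libraries of the 2 groups do not overlap for any of the 3, beside 31.4% of all 229 miRNAs. With upper-quartile scaling, miR-199a-3p at -0.34 and miR-199b-3p at -0.35 passed, but the median of all miRNAs was then shifted by -0.09. With library size alone they passed at -0.36 and -0.37, but the median of all miRNAs was then shifted by -0.10 and 51 of the 229 passed.

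For serum Con A EVs against PBS the log2 change was 0.16 (95% interval -0.05 to 0.38; edgeR adjusted p = 0.309) for miR-199a-3p and 0.11 (-0.18 to 0.40; edgeR adjusted p = 0.656) for miR-199a-5p. For RAW Con A EVs against PBS it was -0.08 (-0.31 to 0.15; edgeR adjusted p = 0.806) and -0.21 (-0.53 to 0.11; edgeR adjusted p = 0.470). All 4 intervals include 0, and miR-199a-5p had 27 to 95 reads in a library.

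Between the recipients of Con A EVs, the values of both arms were higher with serum EVs, but no member passed the test. The log2 difference from cells given RAW Con A EVs was 0.24 (0.02 to 0.46; edgeR adjusted p = 0.0955) for miR-199a-3p, 0.32 (0.01 to 0.63; edgeR adjusted p = 0.108) for miR-199a-5p and 0.20 (-0.03 to 0.43; edgeR adjusted p = 0.176) for miR-199b-3p. The libraries of these groups do not overlap for miR-199a-3p and miR-199a-5p, beside 46.7% of all 229 miRNAs. Without serum Con A EV replicate 2, miR-199a-3p passed at 0.32 (edgeR adjusted p = 0.0400), the highest of 0.11 to 0.32 over the 6 fits that each leave out 1 library, and with library size alone, which shifts the median of all miRNAs by 0.22, all 3 passed. By CPM the serum Con A EVs themselves held the lowest miR-199a-3p level of the 4 EV libraries, at 23.9. RAW Con A against RAW saline EV recipients differed by 0.18 (-0.07 to 0.42; edgeR adjusted p = 0.490) for miR-199a-3p, whose libraries do not overlap there, nor do those of miR-199b-3p, beside 16.2% of all 229.

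**Figure D5:**
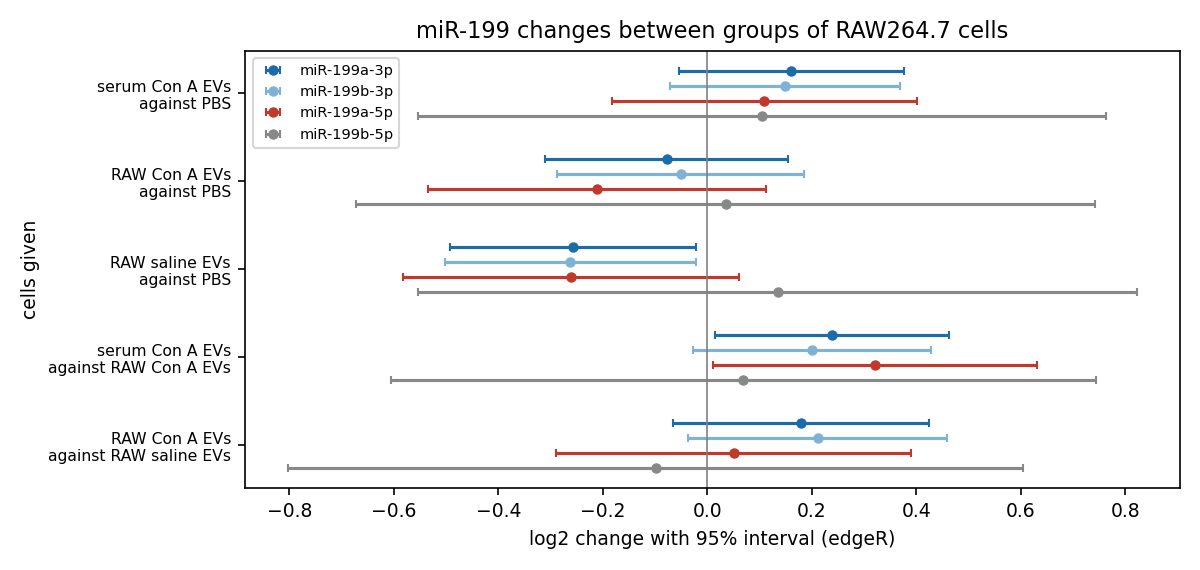
log2 change with 95% interval (edgeR) of the 4 miR-199 arms in the 5 comparisons between cell groups. No point passes an adjusted p of 0.05; the intervals of miR-199a-3p for RAW saline EVs against PBS (-0.49 to -0.02) and for serum Con A against RAW Con A EVs (0.02 to 0.46) do not cross 0.

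miR-143-3p, the member EVs carried most of, appeared in recipient cells at the limit of detection. It had 0, 0 and 0 reads in the PBS libraries, 2, 0 and 0 with serum Con A EVs, 1, 4 and 2 with RAW saline EVs, and 0, 4 and 3 with RAW Con A EVs. The 7 reads of cells given RAW saline EVs are by CPM 2.33 times the floor of 3 reads in the PBS group, and the 7 reads of cells given RAW Con A EVs 2.36 times. These ratios leave out the counting error of the 7 reads. A 2-sided exact permutation test on CPM gave p = 0.1 for RAW saline EVs, p = 0.4 for RAW Con A EVs and p = 1 for serum Con A EVs, and 0.1 is the smallest p that 3 libraries against 3 allow. miR-143-3p did not pass the filter on low counts; with no filter, edgeR gave adjusted p = 0.0873 for RAW saline EVs and adjusted p = 0.111 for RAW Con A EVs.

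Listed markers of other cell types also moved in the same recipients. The erythrocyte markers had 0 reads in the PBS cells and 39, 25 and 25 reads (87.4 to 112 CPM) in cells given serum Con A EVs. They had 2, 5 and 2 reads (4.96 to 20.4 CPM) with RAW Con A EVs. Cells given RAW saline EVs had 1, 2 and 1 reads (4.16 to 5.48 CPM), below the floor of 3 reads, and miR-451a did not pass there (edgeR adjusted p = 0.449). miR-122-5p rose in cells given serum Con A EVs by 3.27 on the log2 scale (edgeR adjusted p = 6.99e-11) and by 1.83 in those given RAW Con A EVs (edgeR adjusted p = 0.00161). The hepatocyte markers did not move together: with serum Con A EVs 2 of the 4 rose and 2 fell, beside 21.4% of all 229 miRNAs passing in either direction. With RAW Con A EVs 2 rose and 0 fell, beside 11.4%. The cells given RAW saline EVs also had 2 that rose and 0 that fell, beside 14.0%, and miR-122-5p did not pass there (edgeR adjusted p = 0.202). With serum Con A EVs the log2 change was -1.99 for miR-192-5p (edgeR adjusted p = 3.21e-12) and -1.91 for miR-194-5p (edgeR adjusted p = 1.13e-08). Both were present in the PBS cells, which had no EVs, at means of 935 and 241 TMM-scaled CPM. The mean of miR-122-5p there was 18.8. miR-143-3p had 2 reads in the cells given serum Con A EVs, 7 with RAW saline EVs and 7 with RAW Con A EVs. In those EVs it stood at 535, 1080 and 1705 CPM, an order that rests on the scaling. The counts in cells are too low to set an order. Whether the reads lay within the cells or in EVs attached to them was not tested.

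Of the 10 other mesenchymal miRNAs, 4 passed the filter in cells. With serum Con A EVs 2 of the 4 fell against PBS, beside 21.4% of all 229 miRNAs passing in either direction: miR-22-3p by 0.71 on the log2 scale (edgeR adjusted p = 4.89e-07) and miR-125b-5p by 0.22 (edgeR adjusted p = 0.00914). With RAW Con A EVs 0 of the 4 passed, beside 11.4%, and with RAW saline EVs, beside 14.0%, 1 did: miR-22-3p rose by 0.28 (edgeR adjusted p = 0.0313). None of the 7 striated muscle miRNAs passed the filter.

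The miRNAs whose levels were most like the mean level of the 6 members over all 16 libraries were found among 306 others by Pearson's r of log2(CPM + 10). They were miR-25-3p (r = 0.948), miR-128-3p (r = 0.919), miR-151-3p (r = 0.908), miR-574-3p (r = 0.880) and miR-218-5p (r = 0.863). The points are libraries of 2 kinds, EVs and cells, and miRNAs of 1 library share its depth, so r is a description with no p. In EVs miR-25-3p, made from the miR-106b hairpin cluster, had its highest and lowest levels by CPM in the same libraries as miR-143-3p, with 37592 CPM in serum saline and 4688 CPM in serum Con A EVs.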

How the data were processed

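miRNA reads were measured in 12 RAW264.7 cell libraries and 4 EV libraries as 51 bp single-end reads. The authors' deposited raw tables hold read counts per mature miRNA; the sources used here do not state the aligner or annotation. The deposited normalized tables hold signal values, which by the files are the raw counts times 1 factor per library; the submitters' processing notes name edgeR. In the EV tables each library was divided by a whole number (126, 2, 13 and 16 for serum saline, serum Con A, RAW saline and RAW Con A), and miRNAs at 0 in either library are left out.

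Cell counts were tested with edgeR 4.0.16 (filterByExpr, which kept 229 of 941 miRNAs; TMM; quasi-likelihood test; 1 fit over 12 libraries; Benjamini-Hochberg at 0.05), after the fit was tested on simulated data. DESeq2 1.42.0, other scalings, no filter, 2-group fits, a replicate block and leaving out each library were alternatives. EV libraries were compared as CPM ratios with exact intervals for 2 Poisson counts, on at least 50 reads and 2-fold, with a floor of 3 reads, in Python 3.11.15 (scipy 1.17.1). Named miRNAs are the 6 members, their partner arms, the striated muscle and mesenchymal lists and the 5 most alike. The members and lists were chosen with earlier results of these data known, and the total without hepatocyte miRNAs was chosen after seeing the data.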

Additional observations from a re-analysis of the deposited data

Results flagged for a closer look

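For 2 members the Con A over saline ratio of CPM lay on opposite sides of 1 in serum EVs and in RAW EVs, each with a counting interval that excludes 1. It was 0.0396 in serum EVs and 1.58 in RAW EVs for miR-143-3p, and 0.0231 in serum EVs and 1.80 in RAW EVs for miR-199a-3p. The ratio of miR-199b-3p, which has the sequence of miR-199a-3p, was 1.55 in RAW EVs with an interval that includes 1 (0.959 to 2.55). The difference between the pairs of libraries was not tested, since each EV preparation has 1 library. In the authors' deposited tables both members were higher in the Con A library of both pairs.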

How the results depend on the processing

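Replicate numbers did not pair the cell libraries: of 18 same-numbered pairs 2 had a correlation of deviations over 0.1 (range -0.19 to 0.20). With a replicate block 0 members passed in each of the 5 comparisons and the counts over all miRNAs were 50, 23, 34, 81 and 9, against 49, 26, 32, 80 and 8. The members called were 0 in all 5 cell comparisons, except 2 with upper-quartile scaling (miR-199a-3p -0.34, miR-199b-3p -0.35) and 2 with library size alone for RAW saline EVs against PBS, and 3 with library size alone for serum Con A against RAW Con A EVs. Leaving out each library gave 0 to 1 members there and 0 elsewhere. Counts over all miRNAs moved as follows. With DESeq2, 32 passed for serum Con A EVs against PBS (49 by edgeR), 11 for RAW Con A EVs against PBS (26), 52 for serum Con A against RAW Con A EVs (80) and 0 for RAW Con A against RAW saline EVs (8). RAW Con A EVs against PBS gave 16 with no filter and 10 to 17 with a library left out. RAW saline EVs against PBS gave 51 with library size alone, 9 higher and 42 lower, against 17 and 15. RAW Con A against RAW saline EVs gave 4 with upper-quartile scaling, 5 with library size alone, 3 with only those 2 groups and 1 to 8 with a library left out.

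In EVs, the authors' deposited values turned all 3 members with 50 reads to higher in serum Con A against saline EVs (log2 2.66, 1.88 and 2.06 for miR-143-3p, miR-199a-3p and miR-199b-3p; median of the 5 members listed there 1.98). For RAW Con A against RAW saline EVs the members apart were 3 without hepatocyte miRNAs and 2 at 1.5-fold. For serum Con A against RAW Con A EVs 1 was apart with a minimum of 100 reads, and miR-143-3p turned to 0.19 with TMM and 0.62 without hepatocyte miRNAs. The deposited scale was not run between serum and RAW EVs, whose tables were normalized separately. Except where the scaling itself shifts every miRNA or fewer libraries or miRNAs enter, the cause was not tested. EV depth limits miR-145a-5p, miR-199a-5p and miR-214-3p to 34 reads or fewer.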
